A study of Mus musculus with 8 samples.

Results

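The genes described here are 9 standard readouts of bone morphogenetic protein (BMP) signalling, chosen by name: the inhibitors of DNA binding Id1, Id2, Id3 and Id4, the homeobox genes Msx1 and Msx2, and the pathway inhibitors Smad6, Smad7 and Bambi. All 9 were present among the 13540 genes of the table. The cells were mouse embryonic stem cells, strain 129/Ola, guided in culture towards heart muscle and harvested as undifferentiated cells on day 0 (ESC), as mesoderm on day 4 (MES), as cardiac precursors on day 5.3 (CP) and as cardiomyocytes on day 10 (CM). Cells spent 2 days as floating aggregates in serum-free medium. They were then reaggregated for 40 hours with VEGF, Activin A and BMP4 itself, at Activin A and BMP4 doses set empirically for each lot, and were afterwards plated with VEGF, FGF10 and basic FGF. The labels give the same protocol for every library and do not state what a given stage had received at harvest. Poly(A) RNA was sequenced from 2 libraries per stage, and the table holds 1 value per stage in RPKM, that is, reads scaled to gene length and to sequencing depth. Whether that value rests on both libraries of a stage or on 1 of them is not given in the sources used here. No replicate spread, SD or p-value can be given, and every difference below describes these stage values.

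BMP ligands bring together type I and type II receptor kinases, which phosphorylate SMAD1, SMAD5 and SMAD9. These enter the nucleus with SMAD4 and switch on target genes, among which the Id genes respond fastest and most widely. Id proteins are helix-loop-helix proteins without a DNA-binding region, and they hold E proteins and lineage factors of the bHLH class away from DNA. MSX1 and MSX2 are transcription factors of patterning in mesoderm, limb and heart valve. SMAD6 and SMAD7 block the receptors or their SMADs, SMAD6 mostly in the BMP branch and SMAD7 in both the BMP and the TGF-beta branch, and BAMBI is a receptor decoy without a kinase domain. BMP signals favour self-renewal in mouse ES cells together with LIF, pattern mesoderm, and are needed for cardiac induction.

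The response genes did not move as a block but followed 4 courses over the stages. Msx1 and Msx2 were highest in MES, Id1, Id2, Id3 and Id4 were highest in CP, Smad6 and Bambi were higher at each later stage, and Smad7 was lower in MES and CP than at either end. On the log2(RPKM + 1) scale the 4 stages spanned at least 2-fold for 8 of the 9 genes, all but Id4, and for 63.2% of all genes. The highest value lay in ESC for 0 of the 9 genes (30.5% of all genes), in MES for 2 (22.8%), in CP for 4 (17.0%) and in CM for 3 (29.8%). For MES and CM these counts are near the shares of all genes.

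**Figure D1:**
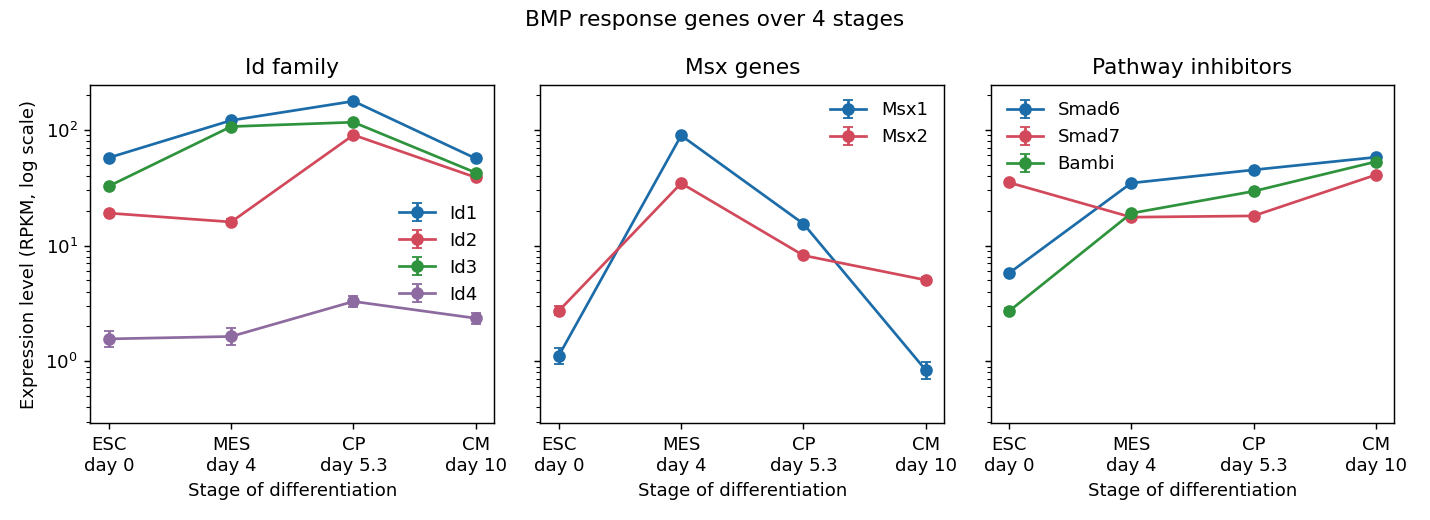
Expression level in RPKM on a log axis (vertical) at each stage (horizontal) for the Id genes, the Msx genes and the pathway inhibitors. Points are the 1 deposited value per stage and bars are 95% Poisson intervals of the recovered reads, which cover counting error only. Msx1 stands at 89.2 RPKM in MES between 1.12 RPKM in ESC and 15.4 RPKM in CP, while Smad6 and Bambi climb through all stages and Smad7 dips to 17.6 RPKM in MES.

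Depth and identity of the stages were checked first. Stage depths recovered from the steps between low values were 75.3, 62.0, 64.8 and 88.5 M reads (M for 1000000) at the 4 stages in turn. The members' values rested on between 137 reads (Msx1 in CM) and 23644 reads (Bambi in CM). All 9 pluripotency markers were highest in ESC, with a summed level of 2316 RPKM there, and the 9 streak and mesoderm markers summed to 8.67, 508, 116 and 32.8 RPKM over the stages. The 8 cardiac precursor markers summed to 602 RPKM in CP and 507 RPKM in CM, against 111 RPKM in MES, and the 9 cardiomyocyte markers to 13.2, 9.98, 1039 and 9428 RPKM. Each list therefore had its highest sum at the stage it names. The cardiac precursor list did not set CP clearly apart from CM. In CM against CP, 1 of its 8 genes was at least 2-fold higher and 3 were lower. Nkx2-5 stood at 70.1 RPKM in CP against 178 RPKM in CM, and Hand2 at 199 RPKM against 39.5 RPKM. In bulk RNA, fewer cells that express a gene and less of its RNA per cell cannot be told apart.

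By the protocol's timing, the step from ESC to MES includes the reaggregation with VEGF, Activin A and BMP4 together. The part of each factor in the values was not tested. At this step 6 of the 9 genes stood at least 2-fold higher in MES (11.1% of all genes did) and 0 were at least 2-fold lower (11.2% of all genes). The median difference of the 9 was 1.68 on the log2(RPKM + 1) scale, against 0.05 over all genes. With each stage scaled by the median of ratios, the split was 5 higher and 1 lower, because Id1 lay below and Smad7 past the 2-fold mark. The higher group was, in order of size, Msx1, Msx2, Bambi, Smad6, Id3 and Id1. Of 9 stress and dissociation genes, 4 were at least 2-fold higher and 2 lower in MES than in ESC, with Fos at 41.9 RPKM in MES against 2.68 RPKM in ESC and Jun at 60.6 RPKM against 6.25 RPKM. Their part in the members' values was not tested. Between MES and CP, 1 gene, Id2, was at least 2-fold higher (8.91% of all genes) and 2, both Msx genes, were at least 2-fold lower (3.91%), with a median of 0.37 against -0.03 over all genes. Between CP and CM, 1 gene, Smad7, was at least 2-fold higher (11.3%) and 4 were at least 2-fold lower (12.8%), namely Id1, Id2, Id3 and Msx1, with a median of -0.61 against -0.15. From end to end, 2 genes, Smad6 and Bambi, were at least 2-fold higher in CM than in ESC (22.2%) and 0 were at least 2-fold lower (23.4%). These shares for CM and ESC lie near or below those of all genes.

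**Figure D2:**
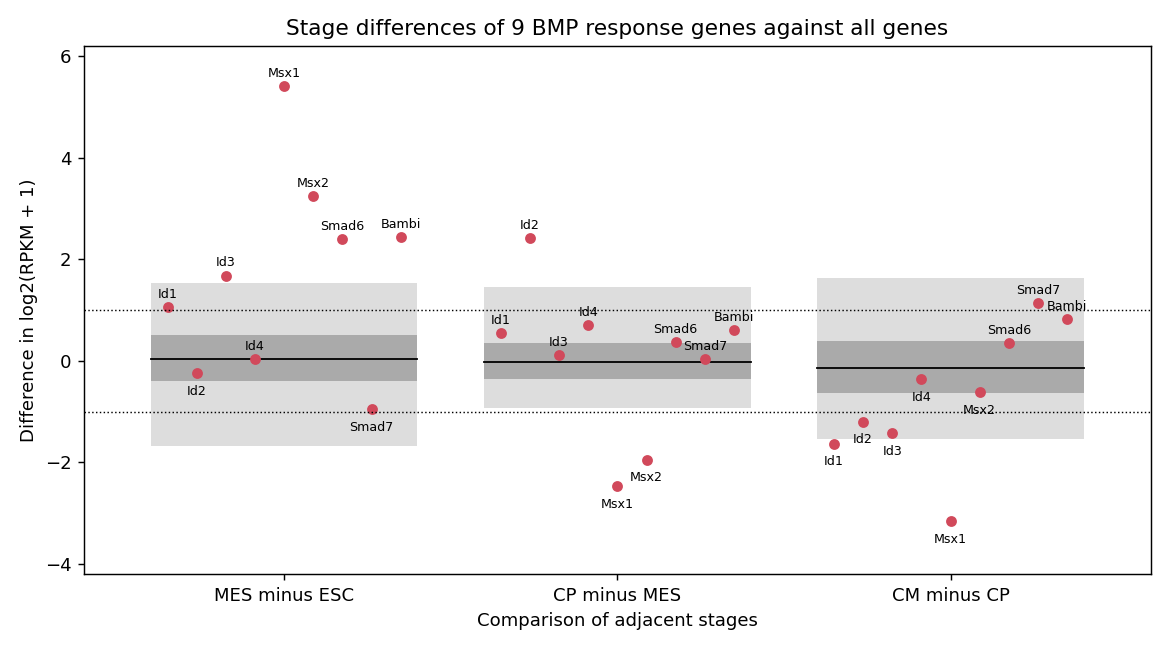
Difference in log2(RPKM + 1) (vertical) of each of the 9 genes (red points) for MES minus ESC, CP minus MES and CM minus CP (horizontal). Light grey boxes span the 5th to 95th percentile of all genes, dark grey boxes the middle quartiles, black lines the median, and dotted lines mark 2-fold. Msx1, Msx2, Smad6, Bambi and Id3 lie above the light box for MES minus ESC, while Smad7 at -0.96 lies just inside the 2-fold mark.

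Promoter sequences are shown for the 4 members that had bases to print outside annotated exons. They fall on both sides of the mesoderm step, since Msx1 and Smad6 were at least 2-fold higher in MES than in ESC and Id2 and Id4 were not. Bases upstream of the RefSeq start site, on build GRCm38.p6, are given from 5′ to 3′ on the gene's strand without any base of an annotated exon, and capitals mark GGCGC, a core of the GC-rich sites that BMP SMADs can bind, on either strand.
Msx1: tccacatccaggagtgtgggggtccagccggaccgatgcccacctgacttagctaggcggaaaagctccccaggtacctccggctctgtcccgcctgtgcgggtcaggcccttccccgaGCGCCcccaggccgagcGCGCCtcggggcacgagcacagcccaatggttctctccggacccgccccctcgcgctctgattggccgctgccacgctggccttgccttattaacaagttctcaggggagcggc
Smad6: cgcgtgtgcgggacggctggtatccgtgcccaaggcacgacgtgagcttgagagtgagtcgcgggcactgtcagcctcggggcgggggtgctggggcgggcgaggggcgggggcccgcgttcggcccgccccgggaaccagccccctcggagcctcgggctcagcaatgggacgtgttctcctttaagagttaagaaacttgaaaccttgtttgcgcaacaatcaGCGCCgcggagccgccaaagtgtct
Id2: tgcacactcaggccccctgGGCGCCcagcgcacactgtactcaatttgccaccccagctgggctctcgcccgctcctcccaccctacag
Id4: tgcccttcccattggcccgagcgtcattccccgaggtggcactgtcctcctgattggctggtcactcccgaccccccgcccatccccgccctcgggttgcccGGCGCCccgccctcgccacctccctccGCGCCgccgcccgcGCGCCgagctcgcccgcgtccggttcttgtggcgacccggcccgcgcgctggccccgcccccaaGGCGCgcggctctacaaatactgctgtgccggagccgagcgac
The Msx1 window is chr5:37824586-37824835 on the minus strand, the Smad6 window chr9:64022060-64022309 on the minus strand, the Id2 window chr12:25096254-25096342 on the minus strand, and the Id4 window chr13:48260866-48261115 on the plus strand. The Id2 window is shorter because its other bases overlap annotated exons.

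Promoter entries existed for 6 of the 9 genes, namely Id2, Id3, Id4, Msx1, Msx2 and Smad6, and the 250 bases before the start were searched in each. The search took in bases of annotated exons of the gene itself, which the windows of Id2, Id3 and Msx2 overlap. GGCGC on either strand occurred in 5 of the 6, against 54.8% of the 11891 promoter windows of 9241 table genes, and Id3 was the exception. The palindrome GGCGCC, which holds GGCGC on both strands, occurred in Id2 and Id4, against 17.1% of promoters. Neither of these was at least 2-fold higher in MES than in ESC, and the windows of Msx1, Msx2, Smad6 and Id3, which were, did not hold it. With 6 windows this split carries no test. CAGAC, the short SMAD-binding box, occurred in Id3 alone, with 2 matches, against 40.6% of promoters. GC content was between 61.6% (Msx2) and 75.6% (Id4), above the median of 60% for promoters of table genes. A match in such a window is a description of its letters and not a site.

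Msx1 (ENSMUSG00000048450, chromosome 5) had the widest range of the 9 genes. Its level was 1.12 RPKM in ESC, 89.2 in MES, 15.4 in CP, then 0.837 in CM. It was thus low at both ends and high in mesoderm, where it stood at percentile 96.8 of all genes, against percentile 17.4 in ESC. The RPKM ratio of MES to ESC was 79.7 (95% interval 68.1 to 93.99, exact binomial on the recovered reads, counting error only, as for all intervals here). On the log2(RPKM + 1) scale the difference was -2.46 for CP minus MES and -3.16 for CM minus CP. The CM level lay below the ESC level, with a ratio of CM to ESC of 0.747 (0.590 to 0.946).

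Msx2 (ENSMUSG00000021469, chromosome 13) followed the same course with a smaller range. It stood at 2.73, 34.5, 8.21 and 5.03 RPKM over the 4 stages. The ratio of MES to ESC was 12.7 (11.5 to 13.9), and CP minus MES was -1.95 on the log2(RPKM + 1) scale. Unlike Msx1, Msx2 kept a higher level in CM than in ESC, with a ratio of 1.85 (1.66 to 2.06), under 2-fold on the log2(RPKM + 1) scale. Set side by side per kilobase, the level of Msx1 relative to that of Msx2 was 0.411 at the ESC stage, 2.59 at MES, 1.87 at CP and 0.166 at CM. Msx1 was therefore the more abundant transcript in the middle stages and Msx2 at both ends.

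Among the Id genes, Id1 (ENSMUSG00000042745, chromosome 2) was the most abundant at every stage. Its levels at the 4 stages in turn were 57.4, 121, 177 and 56.5 RPKM. Id1 was 2.10 times higher in MES than in ESC (2.03 to 2.18) and a further 1.47 times higher in CP than in MES (1.43 to 1.51). CM and ESC lay within counting error of each other, with a ratio of CM to ESC of 0.984 (0.948 to 1.02). Under the other pseudocounts and scalings CM minus ESC ran from -0.02 to 0.17 on the log2 scale. In CP it stood at percentile 99.0 of all genes.

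Id3 (ENSMUSG00000007872, chromosome 4) had most of its difference from ESC by MES. Its levels were 32.6, 107, 116 and 42.5 RPKM. The ratio of MES to ESC was 3.27 (3.15 to 3.40), and that of CP to MES only 1.09 (1.06 to 1.12). CM minus CP was -1.43 on the log2(RPKM + 1) scale, and CM lay slightly above ESC, at a ratio of 1.31 (1.253 to 1.36).

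Id2 (ENSMUSG00000020644, chromosome 12) departed from Id1 and Id3 at the mesoderm stage. It stood at 19.0, 16.0, 90.2 and 38.8 RPKM. It was lower in MES than in ESC, at a ratio of 0.839 (0.780 to 0.902), and 5.65 times higher in CP than in MES (5.32 to 6.002). On the log2(RPKM + 1) scale Id2 was the one member at least 2-fold higher in CP than in MES. CM minus CP was -1.20 on the log2(RPKM + 1) scale. Against ESC, CM lay at 0.99 on that scale, at the edge of the 2-fold mark, and it lay past the mark under each of the 5 other pseudocounts and scalings tried on single genes.

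Id4 (ENSMUSG00000021379, chromosome 13) was the least abundant of the family. Its levels were 1.56, 1.64, 3.29 and 2.35 RPKM, none of them at least 2-fold apart on the log2(RPKM + 1) scale. ESC and MES could not be told apart, with a ratio of MES to ESC of 1.05 (0.838 to 1.31) on 151 reads in MES and 175 reads in ESC. The ratio of CP to MES was 2.01 (1.65 to 2.45), a step that the pseudocount reduces to 0.70. In the GENCODE M21 annotation antisense transcripts overlap its exons, and use of strand in counting was not stated, so their reads cannot be told apart.

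Summed over the family, the Id level was 111 RPKM in ESC, 245 in MES, 386 in CP, then 140.1 in CM. Its make-up shifted with the stage. Id1 and Id3 together carried most of it in MES, where Id3 held 43.6% and Id2 6.53% of the sum, while in CM Id2 held 27.7% and Id3 30.4%. Id1 held 51.9%, 49.2%, 45.7% and 40.3% of the sum at the 4 stages in turn.

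The E protein genes, whose products are the main partners of Id proteins, were highest in MES. Tcf3, which encodes E12 and E47, stood at 54.7, 102, 89.1 and 21.01 RPKM, Tcf12, which encodes HEB, at 8.40, 32.6, 29.9 and 14.7 RPKM, and Tcf4, which encodes E2-2, at 4.03, 7.73, 5.93 and 5.68 RPKM. Of the 3, only Tcf12 was at least 2-fold higher in MES than in ESC, and only Tcf3 was at least 2-fold lower in CM than in CP. The first count was 2 with quantile normalization, and the second was 2 with a pseudocount of 0.1 or with each stage set to the same sum. Summed RNA levels of the Id genes exceeded those of the E protein genes 1.65-fold in ESC and 1.72-fold in MES, and 3.09-fold in CP and 3.38-fold in CM. The ratio was therefore similar in ESC and MES and higher at both later stages. It is a ratio of RNA levels and does not give the balance of the proteins. In CP the Id sum was higher and the E protein sum slightly lower than in MES, and in CM both sums were lower than in CP.

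**Figure D3:**
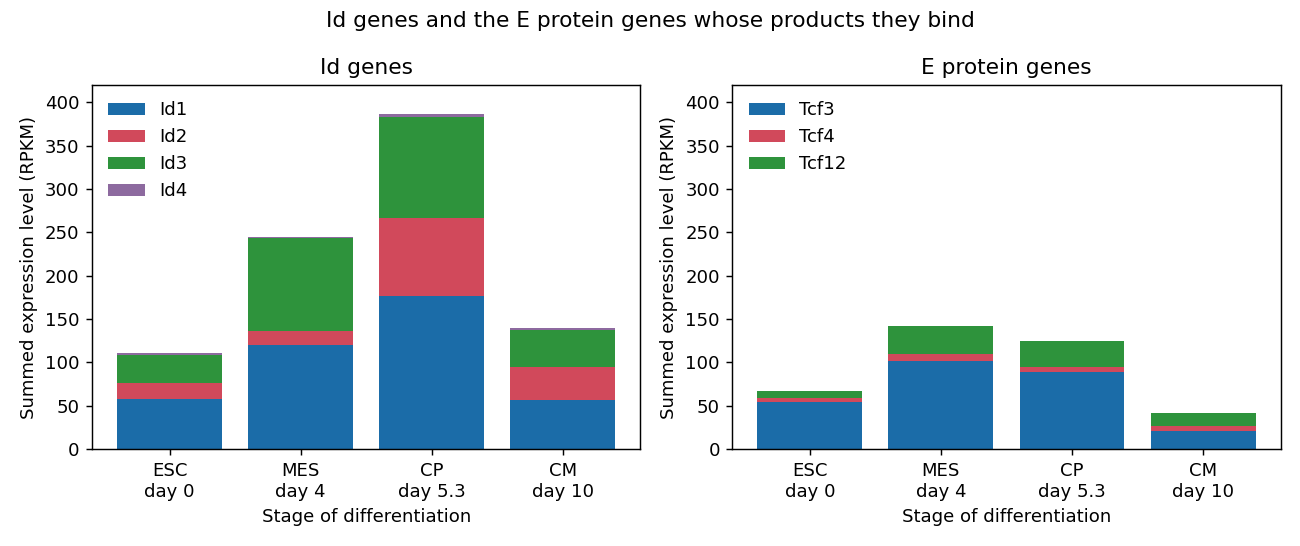
Stacked levels in RPKM (vertical) of the 4 Id genes (left) and of the 3 E protein genes (right) at each stage (horizontal), on the same scale from 0. Each colour is the 1 deposited value of a gene. The Id stack peaks at 386 RPKM in CP, where the Id2 segment widens, and the E protein stack peaks at 142 RPKM in MES.

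Lineage bHLH factors, many of which pair with E proteins, were listed beside them. Of 16 such genes in the table, 12 were at least 2-fold higher in MES than in ESC and 2 were lower. Hand1, a factor of heart and extraembryonic mesoderm, stood at 172 RPKM in MES against 1.98 RPKM in ESC, and Mesp1, of the earliest cardiac mesoderm, at 148 RPKM against 0.125 RPKM. Between MES and CP the list was divided, with 6 higher and 6 lower in CP. Hand2, which is needed for the right ventricle, reached 199 RPKM in CP against 30.8 RPKM in MES. Tcf15, a factor of paraxial mesoderm, was highest in ESC and lower at each later stage, at 61.2, 22.1, 4.41 and 0.899 RPKM. Between CP and CM, 2 were higher and 6 lower in CM.

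Smad6 (ENSMUSG00000036867, chromosome 9), the BMP-branch inhibitor, was higher at each later stage. Its levels were 5.75 RPKM in ESC, 34.6 in MES, 45.0 in CP, then 57.9 in CM. The ratio of MES to ESC was 6.02 (5.68 to 6.39), and the later steps were smaller, at 1.30 (1.26 to 1.34) for CP to MES and 1.29 (1.254 to 1.32) for CM to CP. From end to end CM stood 10.1 times above ESC (9.52 to 10.6).

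Bambi (ENSMUSG00000024232, chromosome 18), the decoy receptor gene, took the same course over a wider range. Its levels were 2.70, 19.0, 29.4 and 53.0 RPKM. The ratio of MES to ESC was 7.03 (6.58 to 7.52), and that of CM to ESC was 19.6 (18.4 to 20.9). Its step from CP to CM, at a ratio of 1.80 (1.76 to 1.85), was under 2-fold.

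Smad7 (ENSMUSG00000025880, chromosome 18), the inhibitor shared by both branches, ran against Smad6 at the first step. Its levels were 35.03, 17.6, 18.0 and 40.8 RPKM. It was lower in MES than in ESC at a ratio of 0.501 (0.485 to 0.519), which is -0.96 on the log2(RPKM + 1) scale. MES and CP lay within counting error of each other, at a ratio of CP to MES of 1.03 (0.985 to 1.07). On the log2 scale CP minus MES was 0.03, and up to 0.11 under the other pseudocounts and scalings. CM was 2.26 times CP (2.19 to 2.34). The level of Smad7 was 6.09 times that of Smad6 in ESC, against 0.507 times at MES, 0.400 times at CP and 0.704 times at CM. The more abundant inhibitory SMAD transcript was therefore Smad7 in ESC and Smad6 at the 3 later stages.

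Because Smad7 also answers to the SMAD2 and SMAD3 branch, a list of genes of the TGF-beta and NODAL response was set beside it. Of its 11 genes in the table, 0 were at least 2-fold higher and 8 were lower in MES than in ESC. The list's median was -2.61 on the log2(RPKM + 1) scale. It is a selection and does not stand for every gene of the branch. For one, it holds none of the 9 streak and mesoderm markers, all at least 2-fold higher in MES than in ESC. Among those, Eomes stood at 73.7 RPKM in MES against 2.36 RPKM in ESC and Mixl1 at 21.9 RPKM against 0.436 RPKM. Lefty1, a NODAL antagonist, stood at 0.367 RPKM in MES against 145 RPKM in ESC, and Ctgf, a matrix-associated growth factor that YAP also induces, at 5.63 RPKM against 39.5 RPKM. Between MES and CP 3 were higher and 5 lower in CP, or 1 higher with quantile normalization. Between CP and CM 5 were higher and 0 lower in CM, among them Ctgf at 199 RPKM in CM against 4.74 RPKM in CP. The part of this branch, and of the added Activin A, in the Smad7 values was not tested.

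**Figure D4:**
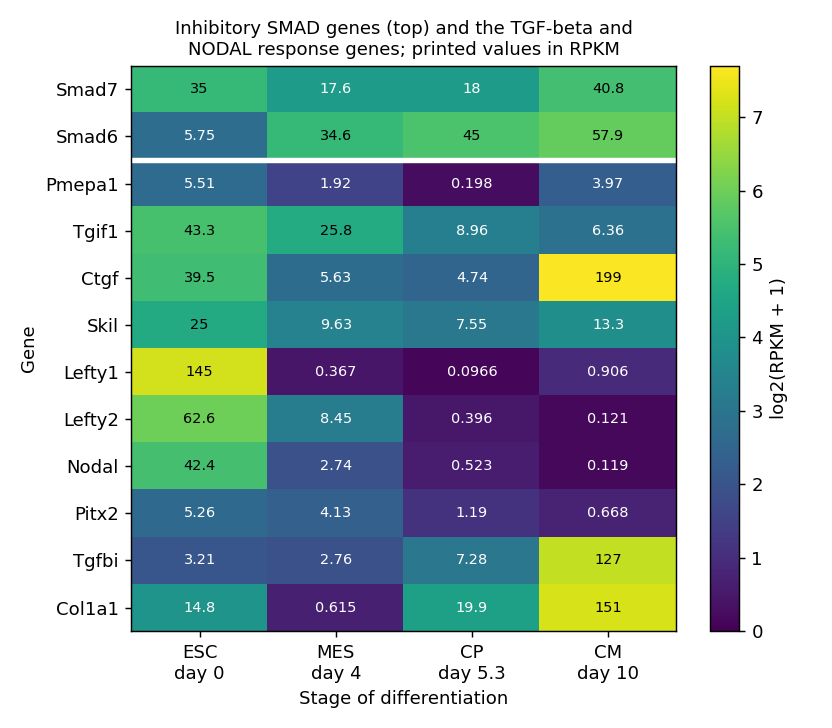
Levels of Smad7 and Smad6 (top) and of 10 genes of the TGF-beta and NODAL response list (bottom), 1 gene per line (vertical) and 1 stage per column (horizontal). Colour is log2(RPKM + 1) and each cell prints the deposited RPKM. Smad7 is brighter in ESC and CM than in between, while Smad6 is darkest in ESC at 5.75 RPKM and brightest in CM at 57.9 RPKM.

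The upstream parts of the BMP pathway were described from gene lists. Of 9 ligand genes in the table, MES stood at least 2-fold above ESC for 4 and below it for 1. With pseudocounts of 0.1 or 0.5, or with each stage set to the same sum, these counts were 5 and 2. Bmp4 lay at the edge of the 2-fold mark, at 0.997 on the log2(RPKM + 1) scale. Bmp7 stood at 24.4 RPKM in MES against 0.677 RPKM in ESC, Bmp2 at 12.3 RPKM against 0.698 RPKM, and Bmp5 at 12.5 RPKM while listed at 0 in ESC. Bmp4 had the highest level of the ligand genes in ESC, MES and CP, with 20.97, 42.8 and 61.8 RPKM, and in CM it stood at 66.9 RPKM beside Bmp7 at 66.7 RPKM. Bmp10, a ligand of heart trabeculae, was listed at 0 in ESC and MES and stood at 0.831 RPKM in CP, then 6.12 RPKM in CM. The ligand sum was 27.2, 96.6, 147 and 159 RPKM over the stages, so that it was highest in CM, where the Id sum was well below its CP value.

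Of 10 receptor and coreceptor genes, 4 were at least 2-fold higher and 1 was lower in MES than in ESC. The type I receptor gene Bmpr1a stood at 27.0 RPKM in MES against 11.6 RPKM in ESC, and the type II receptor gene Acvr2b at 51.4 RPKM against 13.6 RPKM. Rgma, a coreceptor gene, stood at 20.7 RPKM in MES against 1.12 RPKM in ESC. At the next step CP lay 2-fold or more above MES for 2 of them and below it for 1. The higher pair were Acvrl1, the type I receptor ALK1 of endothelium, at 13.4 RPKM in CP against 0.335 RPKM in MES, and its coreceptor gene Eng at 21.01 RPKM against 2.61 RPKM. Between CP and CM, only Eng was at least 2-fold higher in CM, at 43.6 RPKM against 21.01 RPKM in CP, which did not hold with each stage set to the same sum.

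Of 12 listed transducers and regulators of the signal, some of which restrain it, 4 were at least 2-fold higher in MES than in ESC. The 1 that was lower, Skil, is also in the TGF-beta and NODAL response list. Smad1 stood at 19.7 RPKM in MES against 2.89 RPKM in ESC and Smad4, the common partner, at 46.0 RPKM against 18.7 RPKM. Zfp423, a zinc finger cofactor of SMADs, stood at 14.6, 32.7, 14.6 and 2.82 RPKM over the stages. Smad9 had its highest value in CM, at 0.101, 0.938, 3.63 and 13.6 RPKM. Tob1, an antiproliferative protein known to restrain BMP SMADs, stood at 39.3 RPKM in CM against 7.83 RPKM in CP.

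Among 13 extracellular antagonists and related genes, MES lay 2-fold or more above ESC for 7 and below it for 0. Cer1, an antagonist of NODAL and BMP, was at 47.9 RPKM in MES while listed at 0 in ESC, and Fst, follistatin, at 14.0 RPKM in MES against 2.09 RPKM in ESC. In CP both were close to their ESC levels or below, at 0.0791 RPKM for Cer1 and 0.106 RPKM for Fst. Twsg1, which binds BMPs together with chordin, stood at 11.9, 35.6, 27.6 and 16.1 RPKM over the stages, and Bmper, crossveinless-2, at 0.113, 13.9, 15.0 and 3.98 RPKM. Fstl1, a follistatin-like secreted protein, was higher at each later stage, at 19.0, 29.5, 77.3 and 116 RPKM.

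**Figure D5:**
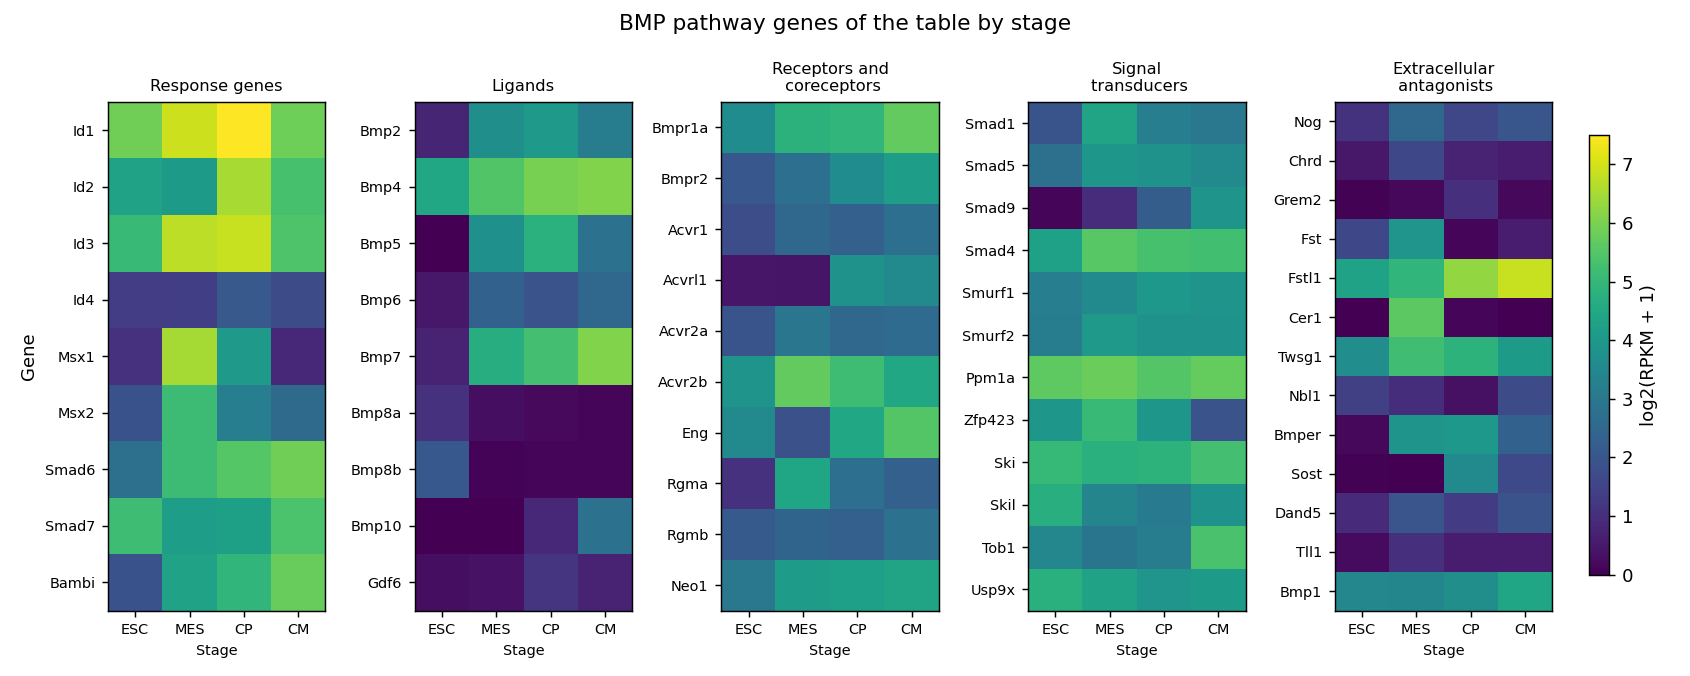
Levels as log2(RPKM + 1) (colour) of the 9 response genes and of the ligands, receptors, transducers and antagonists of the BMP pathway present in the table, 1 gene per line (vertical) and 1 stage per column (horizontal). Msx1 and Cer1 are brightest in MES, at 89.2 and 47.9 RPKM, while Bmp4, Bmp7 and Bmpr1a grow brighter up to CM.

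Other transcription factors known to respond to BMP in some tissue were also listed. Of 11 in the table, 6 were at least 2-fold higher and 0 were lower in MES than in ESC. Tbx20 and Tbx2, T-box factors of the heart, were higher at each later stage, at 0.820, 12.9, 41.9 and 59.2 RPKM for Tbx20 and 0.289, 7.78, 11.3 and 26.2 RPKM for Tbx2. Tbx3 was highest in MES, at 15.8, 43.4, 7.85 and 0.981 RPKM. The list thus held courses like those of Smad6 and Bambi beside courses like those of the Msx genes.

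Msx genes are also WNT targets in some tissues, and the WNT response list was highest in MES too. Of 8 genes, 6 were at least 2-fold higher and 1 was lower in MES than in ESC, and 0 were higher and 7 lower in CP than in MES. Sp5, a direct WNT target, stood at 8.68, 49.5, 2.59 and 0.108 RPKM over the stages, and Nkd1, a feedback inhibitor, at 1.06, 47.7, 8.25 and 16.3 RPKM. The high MES values of Msx1 and Msx2 thus stood beside those of WNT targets as well as of BMP components, and the part of either was not tested.

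Id genes, Smad6, Acvrl1 and Eng are strongly expressed in endothelium, so endothelial markers were set beside them. Id1, Id3 and Smad6 stood above ESC in MES. There 10 of 13 endothelial markers were below 1 RPKM, among them Cdh5, VE-cadherin, at 0.215 RPKM and Tie1 at 0.108 RPKM. The others were Sox17 at 9.34 RPKM, Egfl7 at 7.73 RPKM and Eng at 2.61 RPKM. The list summed to 22.0 RPKM in MES against 42.8 RPKM in ESC, where Pecam1 stood at 16.2 RPKM and Eng at 10.7 RPKM. In CP, where Id2 and the Id sum were highest, 11 of the 13 were past 2-fold above MES and 0 below it, with a summed level of 392 RPKM in CP, and Cdh5 was at 71.3 RPKM. Blood markers stood higher in CP as well, in 7 of 8 cases, with a sum of 253 RPKM in CP against 4.30 RPKM in MES. In CM the sums were 183 RPKM for endothelial and 11.4 RPKM for blood markers. For smooth muscle markers CP was past 2-fold above MES in 4 of 5 cases and below it in 0. Their sum was 593 RPKM in CP against 19.7 RPKM in MES, most of it Acta2, at 498 RPKM against 1.96 RPKM. Myh11 was at 2.95 RPKM in CP against 0.113 RPKM in MES. In ESC the list summed to 286 RPKM, so a high sum did not mark smooth muscle cells alone. What part cells with these markers had in the MES and CP values of the Id genes and Smad6 was not tested.

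Markers of further cell types, and some of the same, differed at the other steps. In MES against ESC, 4 of 5 endoderm markers were at least 2-fold higher, with Foxa2 at 6.88 RPKM against 0.125 RPKM. Of these 4, Gata6 was higher still in CP, at 99.7 RPKM against 28.7 RPKM in MES, and Sox17 is also among the endothelial markers. The other, Ttr, stood at 0.158 RPKM in MES, so the count did not mark endoderm cells alone. Of 7 trophoblast and extraembryonic markers, 3 were higher and 1 was lower. In CM against CP, where Smad7 was past 2-fold, 6 of 8 fibroblast and mesenchyme markers were higher and 0 lower, with Col1a1 at 151 RPKM in CM against 19.9 RPKM in CP, and 3 of 5 smooth muscle markers were higher. Of 9 stress and dissociation genes, CM was past 2-fold above CP for 7 and below it for 0, summing to 1160 RPKM in CM against 472 RPKM in CP. Of 4 epicardial markers, 0 were higher and 2 lower in CM than in CP, and of 6 neural and neural crest markers 0 were higher and 2 lower. The part of cells with these markers, and of handling, in the members' values was not tested.

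The genes closest in course were found by the root mean square difference of centred log2(RPKM + 1) values over the 4 stages, among genes within 4-fold of a member's mean level. Lhx1 and Foxf1a, factors of lateral and intermediate mesoderm, were closest to Msx1, with differences of 0.095 and 0.31. Lhx1 stood at 0.0290, 42.9, 7.20 and 0.0466 RPKM, and Alx1, a homeobox gene, was closest to Msx2 at 0.144, 11.5, 2.10 and 1.34 RPKM. Ubqln2, a ubiquilin gene, was among the closest to Id1, at 36.1, 79.1, 92.7 and 31.2 RPKM. Closest to Id2 were Sipa1 and Egfl7, and Egfl7, a secreted protein gene that is also among the endothelial markers above, stood at 7.60, 7.73, 39.8 and 23.9 RPKM. Bin1 and Limd2 were closest to Id3, Fyn and Gdf6 to Id4, and Lix1l and Sepn1 to Smad6. Zmym3 and Serpinb6a were closest to Smad7, and Slit3 and Tbx2 to Bambi, Tbx2 being itself among the listed BMP-responsive factors. With 4 values per gene, many genes share a course, and these likenesses carry no test.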

How the data were processed

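Per the labels' protocols, poly(A) RNA went through PCR-amplified libraries onto an Illumina GAIIx. The submitters' processing notes name Novoalign 2.07.00 and build mm9. How reads were counted, with which annotation and strand setting, and whether a stage's column pools its 2 libraries or holds 1, is not given in the sources used here. As RPKM per the file headers, the authors deposited values, 1 per stage and gene, and each of the 13540 genes reaches at least 1.00 RPKM in some stage, so members of a list that are missing cannot be called absent.

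The limma fit planned for separate libraries was not run, and the plan for 1 value per stage was followed: differences of log2(RPKM + 1), which understate changes of low genes, and how many genes lay 2-fold or more apart, beside the same counts over all genes. Depth was recovered from the steps between low values: in 965 low genes, 85.8% fitted whole multiples of 1 step size at all stages (relative tolerance 5e-07), against 0% with wrong depth ratios. Absolute depth was set from GENCODE M21 exon lengths, with 19.9% of 5960 estimates within 0.1% of the mode. The smallest whole reads that give each member's 4 values were used. For all 9 members the gene model length these implied lay within 0.001 bases of a whole number, such as 1160 bases for Id1. The procedure was tested on simulated data. The 95% intervals are exact binomial or Poisson and cover counting error only, since PCR copies were not marked. A count of 3 reads on 2 kb equals 0.0199 RPKM in ESC, 0.0242 in MES, 0.0232 in CP, then 0.0169 in CM.

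The 9 members, the lists (186 of their 216 genes were found, 1 through its gene ID) and the naming rule were chosen with earlier results of these data known. The rule names all members, the 2 genes most like each, and of each list up to 4 genes past 2-fold with the highest levels and 2 others. The stages given for some listed genes were chosen after their values were seen. Shared 32-base words with transcripts of other genes made up at most 3.04% of a member's longest transcript. A few genes that the rule names are not reported here. Promoters come from RefSeq. Alternatives were pseudocounts of 0.1 and 0.5, a 4-fold minimum, a filter at 3 RPKM, and 3 other scalings. Python 3.11.15 with pandas 2.3.3 and scipy 1.17.1 was used.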

Additional observations from a re-analysis of the deposited data

How the results depend on the processing

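Of the 36 member differences (9 genes in 4 comparisons), 16 were at least 2-fold, and all 16 kept their sign under the 2 other pseudocounts and 3 other scalings. Of these 16, 15 stayed past 2-fold in each, the exception being Id1 for MES minus ESC, at 1.06 as reported and 0.93 at the lowest. Of the 20 under 2-fold, 18 stayed under it, and the others were Smad7 for MES minus ESC (-1.08 at the lowest) and Id2 for CM minus ESC (1.006 to 1.09). Among the 20, 2 took the other sign in at least 1 alternative. They were Id1 for CM minus ESC (-0.02 to 0.17) and Id4 for MES minus ESC (-0.04 to 0.11). Median-of-ratios scaling gave 5 higher and 1 lower gene for MES minus ESC, against 6 and 0. A minimum of 4-fold left 1 lower gene for CP minus MES in place of 2, and 0 higher and 1 lower for CM minus CP in place of 1 and 4. For CM minus ESC, 3 genes in place of 2 were higher under both pseudocounts and all 3 scalings. For CM minus CP, the median of all genes shifted by 0.11 with median-of-ratios scaling and by -0.14 with a common sum of 1000000 for every stage. Counts of the pathway lists, recomputed in the same way after the data were seen, stayed within 1.5 times in 435 cases and moved further in 69, of which 34 were at the 4-fold minimum. For example, 3 antagonists were higher in CM than in ESC as counted here, and 7 with a pseudocount of 0.1. Leaving out a library was not possible with 1 value per stage. No paired analysis was possible because the columns carry no replicate numbers. Without replicates, depth bounds counting error alone, which is widest for Id4 and for Msx1 in ESC and CM.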
